A study of Mus musculus with 12 samples.

Results

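The 7 genes described here encode products of the extracellular matrix and of transforming growth factor beta (TGF-beta) biology: Tgfb1, Thbs1, Tgfbi, Fn1, Vcan, Sdc3 and Plod3. They were selected from earlier results of these same libraries, so the calls given below describe them and are not independent evidence. All 7 of them were found by symbol among the 54232 genes of the deposited count table, and all 7 passed the filter on low counts, as did 16281 genes in all.

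Bone marrow-derived macrophages (BMDMs) of wild-type C57BL/6 mice were cultured for 5 days and then kept for 24 h with or without tumor-conditioned medium (TCM), and with or without 500 nM R788 (fostamatinib), an inhibitor of spleen tyrosine kinase (Syk). There were 6 groups with 2 libraries each. The groups without R788 were NS (no TCM), NB9464 TCM, from a mouse neuroblastoma line with amplified MYCN, and NBT3L TCM, from a line without that amplification. The matching groups with R788 were R788 (no TCM), NB9464 TCM + R788 and NBT3L TCM + R788. NB9464 TCM was collected over 48 h in medium without serum, whereas the making of NBT3L TCM, the medium of the NS cells and the vehicle of R788 were not given in the sources used here, so a TCM comparison also holds any difference in base medium. No label tied the paired libraries to separate mice or cultures, and the p-values measure the spread between these libraries.

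TGF-beta is secreted in a latent form and must be released before it binds its receptors, which signal through SMAD proteins. Thrombospondin-1, the product of Thbs1, is among the proteins that can release it, and Tgfbi is named for its induction by TGF-beta. Fibronectin (Fn1) and versican (Vcan) are large secreted matrix molecules. Syndecan-3 (Sdc3) is a heparan sulfate proteoglycan of the cell surface, and Plod3 encodes a lysyl hydroxylase and glycosyltransferase that modifies collagen chains. Macrophages in tumors are known sources of TGF-beta and of matrix proteins.

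Positions below are on GRCm38 (mm10), from the GENCODE annotation, and each gene is protein-coding. Tgfb1 (ENSMUSG00000002603) lies on chr7:25687002-25705077, plus strand, Thbs1 (ENSMUSG00000040152) on chr2:118111876-118127133, plus strand, and Tgfbi (ENSMUSG00000035493) on chr13:56609523-56639562, plus strand. Fn1 (ENSMUSG00000026193) lies on chr1:71585520-71653200, minus strand, and Vcan (ENSMUSG00000021614) on chr13:89655312-89742509, minus strand. Sdc3 (ENSMUSG00000025743) lies on chr4:130792537-130826319, plus strand, and Plod3 (ENSMUSG00000004846) on chr5:136987019-136996648, plus strand. Plod3 shares 529 exon bases with Znhit1 on the opposite strand, which had 2078 to 3643 counts per library, and since it is unknown whether counting used the strand, Plod3 is the least certain of these values. Non-coding genes that overlap Thbs1, Fn1 or Sdc3 had 0 to 8 counts.

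Vcan and Sdc3 were the members whose response to R788 alone was largest in each direction, and the 250 bases before their start are shown for that reason, 5′ to 3′ on the strand of the gene, from RefSeq promoter entries on GRCm38.p6. Capitals mark matches on either strand to CAGAC (the SMAD box) or GGGCGG (the GC box). The windows are chr13:89742513-89742762 (minus strand) for Vcan and chr4:130792287-130792536 (plus strand) for Sdc3.
Vcan: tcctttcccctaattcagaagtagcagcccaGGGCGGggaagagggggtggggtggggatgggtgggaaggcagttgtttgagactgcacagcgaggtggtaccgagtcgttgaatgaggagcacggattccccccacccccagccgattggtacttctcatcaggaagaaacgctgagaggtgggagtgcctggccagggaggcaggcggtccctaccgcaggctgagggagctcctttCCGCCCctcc
Sdc3: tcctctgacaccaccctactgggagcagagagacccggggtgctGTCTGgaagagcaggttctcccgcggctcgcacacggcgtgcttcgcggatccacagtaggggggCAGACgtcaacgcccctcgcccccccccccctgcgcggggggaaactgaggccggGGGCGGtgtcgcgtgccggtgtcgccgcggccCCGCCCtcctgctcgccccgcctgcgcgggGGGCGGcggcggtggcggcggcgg
The Sdc3 window held 2 matches to CAGAC and 3 to GGGCGG, and the Vcan window held 0 and 2. Among 32851 promoter windows of this length, 42.2% held CAGAC and 32.7% held GGGCGG. Entries were found for 5 of the 7 members. Of the others, the Tgfbi window held 2 matches to CAGAC and 1 to GGGCGG, the Tgfb1 window held 0 and 5, and the Plod3 window held neither. Matches are a description of letters and were not tested against the expression values.

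Library totals ran from 44977847 to 56449685 counts. Between 17275 and 18343 genes had a count in 11 of the libraries, and 16149 did in the second R788 library (SJ8), so results on R788 without TCM are also given without it. Macrophage markers were high everywhere: the 6 of 6 genes summed to between 1570000 and 2650000 normalized counts, and Adgre1, which encodes the macrophage antigen F4/80, had 76084 or more counts per library. Lists of other cells that can make the products described here were low beside that sum. Most of it was Lyz2, with a group mean of 1350000 of 1590000 in NS. Beside the members they were not all low. The fibroblast sum was above the 689 to 1127 normalized counts of Fn1 and overlapped the 1642 to 6787 of Vcan. The fibroblast list (9 of 9 genes with counts) summed to between 1440 and 1890 in NS and between 3930 and 3950 in NBT3L TCM + R788, and the neuroblastoma list (8 of 10) to at most 86.6, with Th and Chga at 0 in every library. The megakaryocyte and platelet list (5 of 6) reached at most 1340, with Gp1bb at 0, and the neutrophil list (8 of 8) 11300, with Ly6g at no more than 4 counts. Of the neutrophil genes, S100a8 had group means of 1270 (NS), 6040 (NB9464 TCM) and 7980 (NBT3L TCM), while those of Ltf were 1520, 371 and 406 and those of Ngp 1690, 692 and 530. The part of these cells in the values below was not tested. Dendritic cell markers (4 of 5) summed to at most 89 and lymphocyte markers (4 of 5) to at most 34.7, with Siglech of the former at 0.

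Divided by gene length, 4 of the members lay close together and the rest lay lower. Over the 12 libraries Tgfb1 had a mean of 4857, Thbs1 4596, Tgfbi 4514 and Sdc3 4029 normalized counts per kilobase. Each of these 4 lay above 96.2% or more of the tested genes. Plod3 followed at 1653, Vcan at 337 and Fn1 at 76.1, with Fn1 above 41.6% of the tested genes only. On the TPM scale Thbs1 and Tgfbi changed places (236 and 255 TPM) and the rest of the order was the same. The members also differed in how far they moved: the highest group mean was 12.9 times the lowest for Thbs1, 5.49 for Sdc3 and 3.62 for Vcan, against 1.69 for Tgfbi, 1.67 for Plod3, 1.4 for Fn1 and 1.35 for Tgfb1.

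**Figure D1:**
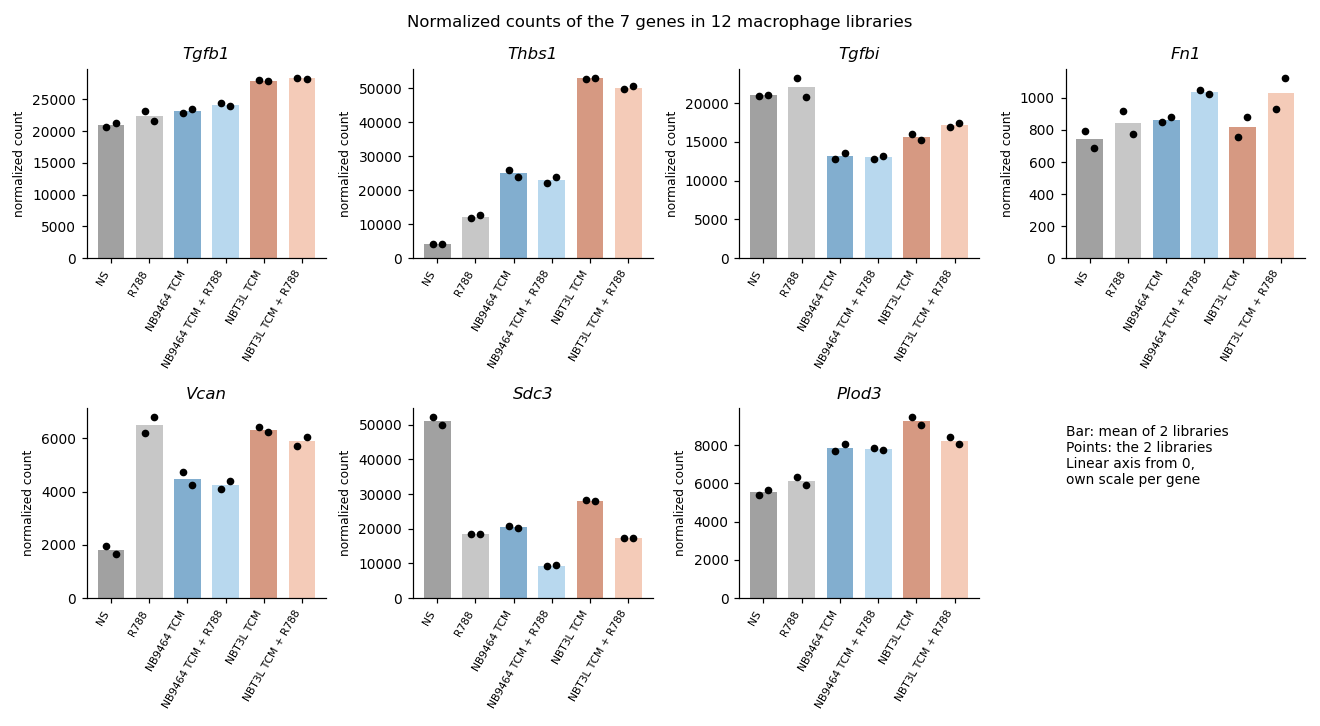
Normalized counts (linear axes from 0, a scale for each gene) of the 7 genes in the 6 groups, with bars for the mean of 2 libraries and points for the libraries. Thbs1 rises from 4104 in NS to 52990 in NBT3L TCM, Sdc3 is highest in NS at 51060 and lowest in NB9464 TCM + R788 at 9297, and Vcan is lowest in NS.

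Which members changed when macrophages were given TCM was read from each TCM against NS. In both media 6 of the 7 members were called by DESeq2 (adjusted p under 0.05 over all tested genes), against 34.1% of all tested genes for NB9464 TCM and 35.3% for NBT3L TCM. Thbs1, Vcan, Plod3 and Tgfb1 were higher and Sdc3 and Tgfbi lower, in both, and Fn1 was called in neither. Both comparisons share the NS libraries. In bulk RNA, fewer cells of a type and less RNA per cell cannot be told apart. Of the tested genes called, 50.5% were higher in NB9464 TCM and 51.1% in NBT3L TCM. These shares became 35.4% and 26.8% when libraries were scaled to total counts, which moved the median log2 fold change of all genes from 0.02 to −0.10 and from 0.00 to −0.23.

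**Figure D2:**
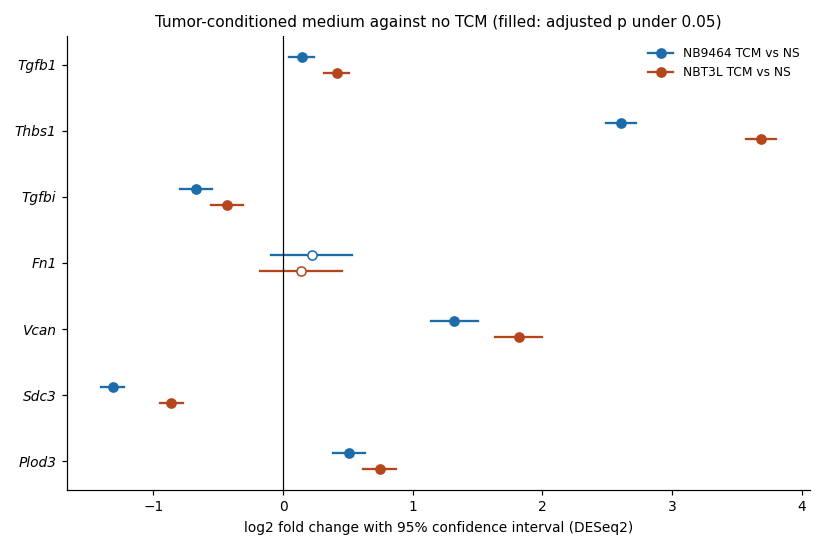
Log2 fold change of each gene in NB9464 TCM and in NBT3L TCM against NS, as points with 95% confidence intervals, filled where the adjusted p was under 0.05. The 2 points for Fn1 are open, and Thbs1 stands farthest to the right at 2.61 and 3.69.

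When both TCM were compared directly, each called member was lower in NB9464 TCM than in NBT3L TCM. This held for 6 of 7 without R788 (9.4% of all tested genes called) and 5 of 7 with R788 in both arms (9.62%). Fn1 was called in neither, and Plod3 was called in the first and not in the second, with a difference between them of 0.16 on the log2 scale (DESeq2 adjusted p = 0.73). Under total-count scaling, 71.9% of the genes called without R788 were higher in NB9464 TCM, against 39.2% with DESeq2's own scaling, and with R788 58.3% against 36.7%.

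The effect of the Syk inhibitor was read in each medium on its own. Without TCM, 3 of 7 members were called (26.6% of all tested genes), with Thbs1 and Vcan higher and Sdc3 lower. In NB9464 TCM 1 of 7 was called (14.5%), and in NBT3L TCM 2 of 7 (12.6%), all of them lower with R788. Interaction contrasts tested if this effect depended on the medium. Against the effect without TCM, 3 members differed in NB9464 TCM (12.5% of all tested genes) and 4 in NBT3L TCM (10.1%), and 1 member differed between both TCM (0.706%). Of the genes called for R788 without TCM, 43.5% were higher, and 55.5% under total-count scaling.

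**Figure D3:**
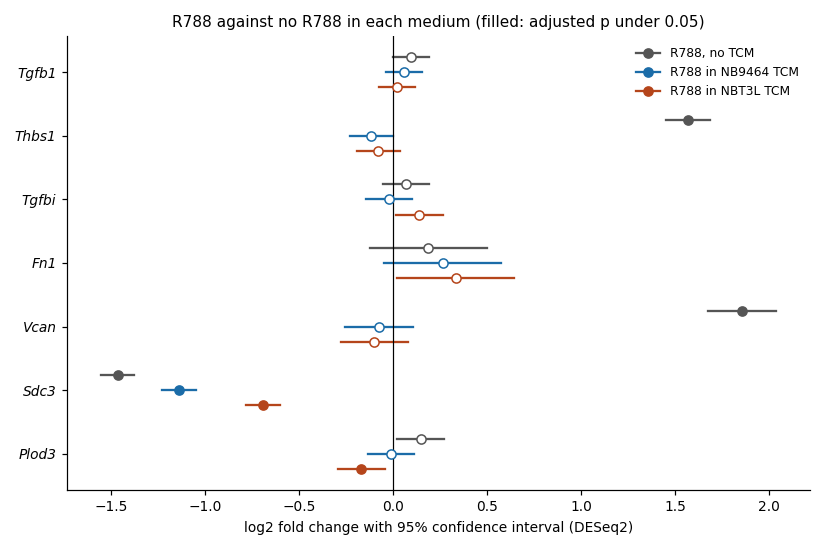
Log2 fold change of each gene with R788 against no R788 in cells without TCM and in cells given either TCM, as points with 95% confidence intervals, filled where the adjusted p was under 0.05. Thbs1 and Vcan lie near 0 in both TCM and at 1.57 and 1.86 without TCM, and Sdc3 lies below 0 in all 3 media.

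Tgfb1, which encodes the ligand TGF-beta 1, was the member with the highest level per length and the narrowest range. It had 20580 and 21350 normalized counts in NS, 22920 and 23460 in NB9464 TCM, and 28000 and 27860 in NBT3L TCM. With R788 it had 23100 and 21620 without TCM, 24380 and 23920 in NB9464 TCM, and 28430 and 28230 in NBT3L TCM. On normalized counts the libraries with NBT3L TCM were above all others, and the NB9464 TCM and R788 libraries overlapped. On the TPM scale the order differed, with means of 298 in R788, 269 in NBT3L TCM, 265 in NS and 246 in NB9464 TCM. In NBT3L TCM, Tgfb1 was 1.33-fold higher than in NS (log2 fold change 0.41, SE 0.0492, DESeq2 adjusted p = 4.9e-16). Under total-count scaling its log2 fold change there was 0.18 (DESeq2 adjusted p = 0.000413). In NB9464 TCM it was 1.11-fold higher (log2 fold change 0.15, SE 0.0492, adjusted p = 0.0109), and it was lower there than in NBT3L TCM by a log2 fold change of −0.27 (adjusted p = 1.71e-06). The call in NB9464 TCM was lost with edgeR (adjusted p = 0.052), without library SJ1 (0.16) or SJ4 (0.118), and under total-count scaling, where the log2 fold change was 0.02. For R788 the 95% intervals of the log2 fold change were −0.003 to 0.189 without TCM, −0.04 to 0.16 in NB9464 TCM and −0.08 to 0.12 in NBT3L TCM, and none was called. Under total-count scaling the difference without TCM was 0.16 and was called (DESeq2 adjusted p = 0.0035), and without library SJ8 it was 0.14. The R788 effect differed from that without TCM by −0.03 in NB9464 TCM (95% interval −0.17 to 0.10) and by −0.07 in NBT3L TCM (−0.21 to 0.06), and with R788 in both arms Tgfb1 was again lower in NB9464 TCM (−0.23, adjusted p = 8.43e-05).

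Thbs1, which encodes thrombospondin-1, had the largest rise of the members. It had 4140 and 4068 normalized counts in NS, 25970 and 23970 in NB9464 TCM, and 52810 and 53170 in NBT3L TCM. In the presence of R788 it had 11790 and 12580 without TCM, 22150 and 23910 in NB9464 TCM, and 49700 and 50660 in NBT3L TCM. No 2 groups overlapped, and both NBT3L TCM groups were above both NB9464 TCM groups, which were above both groups without TCM. Thbs1 was 6.08-fold higher in NB9464 TCM than in NS (log2 fold change 2.61, SE 0.0592) and 12.9-fold higher in NBT3L TCM (3.69, SE 0.0591), both with an adjusted p too small for DESeq2 to store. In NB9464 TCM it was 2.12-fold lower than in NBT3L TCM (adjusted p = 9.78e-77).

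The effect of R788 on Thbs1 depended on the medium. Without TCM, R788 raised Thbs1 2.97-fold (log2 fold change 1.57, SE 0.0595, DESeq2 adjusted p = 2.39e-150), and leaving out a library gave 1.52 to 1.62. In NB9464 TCM the log2 fold change was −0.12 (95% interval −0.23 to −0.004, adjusted p = 0.16) and in NBT3L TCM −0.08 (−0.19 to 0.03, adjusted p = 0.43), so neither was called although the libraries with R788 were the lower ones. The R788 effect differed from that without TCM by −1.69 in NB9464 TCM (SE 0.0828, adjusted p = 1.06e-88) and by −1.65 in NBT3L TCM (SE 0.0825, adjusted p = 2.47e-85). Between both TCM it differed by −0.04 (95% interval −0.20 to 0.12, adjusted p = 0.995). The megakaryocyte and platelet list, whose cells also make thrombospondin-1, summed to 158 to 263 in NS, 412 to 524 in NB9464 TCM and 1290 to 1340 in NBT3L TCM. With R788 it summed to 207 to 257 without TCM, 352 to 375 in NB9464 TCM and 723 to 786 in NBT3L TCM. Of its genes, the means of Ppbp were 197 (NS), 258 (NB9464 TCM) and 1060 (NBT3L TCM), those of Gp6 were 0, 103 and 199, and those of Itga2b 14.1, 96.2 and 40.7, so that each was higher in both TCM than in NS, as Thbs1 was. Gp1bb was at 0 in every library. The part of this in the Thbs1 values was not tested.

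Tgfbi, which encodes a secreted adhesion protein induced by TGF-beta, was called lower in both TCM than in NS. Tgfb1 was called higher in both, but in NB9464 TCM that call was lost with edgeR and under total-count scaling. On the TPM scale the mean of Tgfb1 was lower there than in NS. Tgfbi had 20970 and 21110 normalized counts in NS, 12830 and 13620 in NB9464 TCM, and 16030 and 15210 in NBT3L TCM. The R788-treated cells had 23300 and 20770 without TCM, 12840 and 13170 in NB9464 TCM, and 16930 and 17460 in NBT3L TCM. All 8 libraries with TCM were below all 4 without, and R788 and NS overlapped, as did the NB9464 TCM groups with and without R788. Tgfbi was 1.59-fold lower in NB9464 TCM than in NS (log2 fold change −0.67, SE 0.0627, DESeq2 adjusted p = 2.13e-25) and 1.35-fold lower in NBT3L TCM (−0.43, SE 0.0627, adjusted p = 6.57e-11). It was lower in NB9464 TCM than in NBT3L TCM (−0.24, adjusted p = 0.00204), a call lost without library SJ3 (0.105) or SJ5 (0.121) and under total-count scaling (0.122). With R788 in both arms the same difference was −0.40 (adjusted p = 9.69e-09). R788 changed Tgfbi by 0.07 without TCM (95% interval −0.06 to 0.19), −0.02 in NB9464 TCM (−0.15 to 0.10) and 0.14 in NBT3L TCM (0.02 to 0.26, adjusted p = 0.127), with no call. Without library SJ8 the first of these was 0.15 (adjusted p = 0.0371). No interaction was called for Tgfbi: the R788 effect differed from that without TCM by −0.09 in NB9464 TCM (95% interval −0.26 to 0.08) and 0.07 in NBT3L TCM (−0.10 to 0.24).

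Fn1, which encodes fibronectin, was the member with the lowest level and was called in none of the 10 contrasts. It had 796 and 689 normalized counts in NS, 849 and 880 in NB9464 TCM, and 755 and 879 in NBT3L TCM. With R788 it had 918 and 773 without TCM, 1049 and 1025 in NB9464 TCM, and 931 and 1127 in NBT3L TCM. On normalized counts the 4 libraries with both TCM and R788 were the highest, and the other 4 groups overlapped in a chain. On the TPM scale the highest group mean was 4.86, in R788 without TCM. The log2 fold change with R788 was 0.19 without TCM (95% interval −0.12 to 0.50, DESeq2 adjusted p = 0.429), 0.26 in NB9464 TCM (−0.05 to 0.57, adjusted p = 0.278) and 0.33 in NBT3L TCM (0.02 to 0.65, adjusted p = 0.157). The first of these was 0.30 without library SJ8. The R788 effect in NB9464 TCM and NBT3L TCM differed from it by 0.08 (−0.36 to 0.52) and 0.15 (−0.29 to 0.59). Against NS the log2 fold change was 0.22 in NB9464 TCM (−0.09 to 0.53) and 0.14 in NBT3L TCM (−0.17 to 0.45). Its standard errors in the comparisons of groups, 0.158 to 0.16, were the largest of the members.

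Vcan, which encodes versican, was lowest in NS and highest with R788 alone or with NBT3L TCM. It had 1947 and 1642 normalized counts in NS, 4725 and 4238 in NB9464 TCM, and 6420 and 6230 in NBT3L TCM. In the presence of R788 it had 6220 and 6787 without TCM, 4111 and 4392 in NB9464 TCM, and 5729 and 6062 in NBT3L TCM. On normalized counts R788 and NBT3L TCM overlapped, NB9464 TCM with and without R788 overlapped, and NS was below all other libraries. On the TPM scale R788 and NBT3L TCM did not overlap, with means of 30.2 and 21.2. Vcan was 2.5-fold higher in NB9464 TCM than in NS (log2 fold change 1.32, SE 0.0932, DESeq2 adjusted p = 4.79e-44) and 3.52-fold higher in NBT3L TCM (1.82, SE 0.093, adjusted p = 3.27e-83). NB9464 TCM was below NBT3L TCM by −0.50 (adjusted p = 1.82e-06).

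Without TCM, R788 raised Vcan 3.62-fold (log2 fold change 1.86, SE 0.0927, DESeq2 adjusted p = 1.18e-86), the largest R788 effect on any member, with 1.74 to 1.98 when a library was left out. In NB9464 TCM the log2 fold change was −0.08 (95% interval −0.26 to 0.10) and in NBT3L TCM −0.10 (−0.28 to 0.08), and neither was called. The R788 effect differed from that without TCM by −1.93 in NB9464 TCM (SE 0.13, adjusted p = 7.67e-47) and by −1.96 in NBT3L TCM (SE 0.13, adjusted p = 2.44e-48). Between both TCM it differed by 0.02 (95% interval −0.23 to 0.28). The fibroblast list, whose cells also make versican and fibronectin, summed to 1440 to 1890 in NS and 2880 to 3380 in R788. It was higher with R788 in TCM too, at 2540 to 2780 against 1770 to 1960 in NB9464 TCM and 3930 to 3950 against 2160 to 2440 in NBT3L TCM, where Vcan had no call. The list did not move as one. By group means, Col1a1, Col1a2, Col3a1, Pdgfra and Postn were higher with R788 in each medium, and Pdgfrb and Thy1 went both ways. Dcn and Lum were lower with R788 in each medium. Dcn went from 29.6 to 12.5 without TCM, 54.7 to 25.8 in NB9464 TCM and 82 to 31.1 in NBT3L TCM. The part of this list in the Vcan values was not tested.

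Sdc3, which encodes syndecan-3, was the only member called in all 10 contrasts. It had 52090 and 50020 normalized counts in NS, 20790 and 20220 in NB9464 TCM, and 28300 and 27870 in NBT3L TCM. The R788-treated cells had 18530 and 18400 without TCM, 9190 and 9405 in NB9464 TCM, and 17310 and 17410 in NBT3L TCM. No 2 groups overlapped, NS was the highest, and the group with both NB9464 TCM and R788 was the lowest, with a mean 5.49-fold below that of NS. Sdc3 was 2.49-fold lower in NB9464 TCM than in NS (log2 fold change −1.32, SE 0.0453, DESeq2 adjusted p = 2.46e-183) and 1.82-fold lower in NBT3L TCM (−0.86, SE 0.0452, adjusted p = 3.21e-79). It was lower in NB9464 TCM than in NBT3L TCM by −0.45 without R788 (adjusted p = 3.63e-21) and by −0.90 with R788 in both arms (adjusted p = 2.37e-80).

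R788 lowered Sdc3 in every medium, by an amount that differed between them. The fall was 2.77-fold without TCM (log2 fold change −1.47, SE 0.0453, DESeq2 adjusted p = 5.64e-227), 2.21-fold in NB9464 TCM (−1.14, SE 0.0464, adjusted p = 1.26e-130) and 1.62-fold in NBT3L TCM (−0.69, SE 0.0457, adjusted p = 1.13e-49). Without TCM the value was −1.50 to −1.44 when a library was left out. Against the effect without TCM, the R788 effect differed by 0.33 in NB9464 TCM (SE 0.0648, adjusted p = 1.31e-05) and by 0.77 in NBT3L TCM (SE 0.0643, adjusted p = 1.44e-30). The effect in NB9464 TCM was stronger than in NBT3L TCM by −0.45 (SE 0.0651, adjusted p = 1.44e-08), a contrast in which DESeq2 called 115 genes in all and edgeR 21. R788 and each TCM were lower than NS in Sdc3, and the fall with R788 was smaller on the log2 scale where TCM was present.

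Plod3, the collagen-modifying enzyme, had 5418 and 5647 normalized counts in NS, 7706 and 8050 in NB9464 TCM, and 9450 and 9078 in NBT3L TCM. With R788 it had 6316 and 5917 without TCM, 7855 and 7766 in NB9464 TCM, and 8419 and 8042 in NBT3L TCM. All libraries with TCM were above all without, and NBT3L TCM without R788 was above the rest. Plod3 was 1.42-fold higher in NB9464 TCM than in NS (log2 fold change 0.51, SE 0.0638, DESeq2 adjusted p = 1.63e-14) and 1.67-fold higher in NBT3L TCM (0.74, SE 0.0639, adjusted p = 5.23e-30). It was lower in NB9464 TCM than in NBT3L TCM (−0.23, adjusted p = 0.00332), a call lost with edgeR (0.0542), total-count scaling (0.159) and without library SJ3 (0.125) or SJ5 (0.141). In NBT3L TCM, R788 gave −0.17 (adjusted p = 0.0472), which edgeR did not call (0.143), and neither did any fit without 1 of the 4 libraries. Without TCM the value was 0.14 (95% interval 0.02 to 0.27, adjusted p = 0.074), and 0.19 without library SJ8. Total-count scaling gave 0.21 without TCM, which was called (DESeq2 adjusted p = 0.0037). In NB9464 TCM the R788 value was −0.01 (−0.14 to 0.11). With R788 in both arms, NB9464 TCM differed from NBT3L TCM by −0.08 (−0.20 to 0.05, adjusted p = 0.601). The R788 effect in NB9464 TCM differed from that without TCM by −0.16 (95% interval −0.33 to 0.02, DESeq2 adjusted p = 0.257). Under total-count scaling this difference was −0.24 and was called (adjusted p = 0.0386). The R788 effect in NBT3L TCM differed from that without TCM by −0.32 (SE 0.0901, adjusted p = 0.00635), a call lost with edgeR (0.0568) and without library SJ1 (0.0654), SJ5 (0.0815) or SJ12 (0.0929).

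The nearest patterns among 10704 tested genes with a mean of at least 100 normalized counts were found by Pearson's r of log2(normalized count + 1) over the 12 libraries, which share their groups of 2, and are a description. For Thbs1 they were St3gal1 (r = 0.989), Gstm2 (0.988) and 4933430I17Rik (0.984). For Vcan they were Atrnl1 (0.967), Notch1 (0.959) and Ralgds (0.952), and for Sdc3 Uhrf1 (0.997), Camk2d (0.979) and Flrt2 (0.979). The r for Uhrf1 was the highest of all 21 pairs named here. For Tgfb1 they were Lrpap1 (0.99), Pld3 (0.972) and Selenow (0.97), for Tgfbi Dtnbp1 (0.979), S1pr1 (0.978) and Hpgds (0.972), and for Plod3 Gpr84 (0.985), Ap3s1 (0.985) and Clec4d (0.981). For Fn1 they were Gstm4 (0.901), Mospd3 (0.901) and Rit1 (0.895). Among the members themselves, the closest pair was Plod3 and Thbs1 (r = 0.946), followed by Tgfb1 and Thbs1 (0.912), and the most opposed was Fn1 and Sdc3 (−0.771).

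The other genes of these pathways were taken from lists that do not hold the members. Of 15 tested TGF-beta ligands, activators and receptors (Itgb6 had no counts), 3 passed as higher and 5 as lower in NB9464 TCM against NS, and 2 as higher and 5 as lower in NBT3L TCM, with list medians of −0.13 and 0.02. In this list and those that follow, the counts stand beside 34.1% and 35.3% of all tested genes called in the 2 TCM, 26.6% with R788 alone, and 14.5% and 12.6% with R788 in NB9464 TCM and NBT3L TCM. Tgfbr1, the type I receptor through which TGF-beta signals, had 5556 and 4876 normalized counts in NS, 2004 and 1697 in NB9464 TCM and 1713 and 1657 in NBT3L TCM. Its log2 fold changes were −1.50 (SE 0.107) and −1.63 (SE 0.108), with DESeq2 adjusted p of 1.16e-42 and 7.52e-50. Tgfbr2, its partner receptor, was also lower, by −0.57 and −0.71. Acvrl1, a further type I receptor of the family, was higher by 1.16 and 1.26. Itgb8, a subunit of an integrin that releases latent TGF-beta, had 7.51 and 1.90 normalized counts in NS, 138 and 62.2 in NB9464 TCM and 161 and 249 in NBT3L TCM (adjusted p = 1.4e-09 and 2.4e-14), and was at 0 in both R788 libraries. The other ligands were scarce: Tgfb2 had 7.43 to 31.8 and Tgfb3 6.19 to 77.0 normalized counts per library. With R788 against NS, 5 of the 15 were higher and 2 lower, with a median of 0.19 that stayed so with Itgb8 at a floor of 3 counts per group. In NB9464 TCM R788 raised 1 and lowered 0, and in NBT3L TCM it raised 3 and lowered 1, with Ltbp3, a latent TGF-beta binding protein, higher in both (0.41 and 0.45, adjusted p = 0.0294 and 0.0198) as it was without TCM (0.46, adjusted p = 0.00804).

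Of 17 genes of SMAD signalling and TGF-beta targets, 1 was higher and 7 lower in NB9464 TCM, and 2 higher and 3 lower in NBT3L TCM, with medians of −0.11 and −0.19; the 5 of 17 in NBT3L TCM lay below the 35.3% of all tested genes. Among the lower genes were inhibitors of differentiation that respond to BMP and TGF-beta signals, Id3 at −1.78 and −0.86 and Id1 at −1.59 and −0.92. Id3 had 7047 and 7849 normalized counts in NS, 2041 and 2311 in NB9464 TCM and 4020 and 4215 in NBT3L TCM. R788 moved Id3 and Id1 in opposite directions in TCM. In NB9464 TCM it raised Id3 by 1.22 (SE 0.108, DESeq2 adjusted p = 1.48e-27) and in NBT3L TCM by 0.82 (SE 0.107, adjusted p = 9.2e-13), and Id1 changed there by −0.37 and −0.76 (adjusted p = 0.00752 and 1.64e-10). Without TCM Id1 was lower with R788 as well (−0.60, adjusted p = 1.3e-07), and the value for Id3 was 0.10 (adjusted p = 0.565). Smad6, an inhibitory SMAD, was lower in NB9464 TCM than in NS (−1.03) and than in NBT3L TCM (−1.20, adjusted p = 6.33e-23). Ski, a repressor of SMAD complexes, was lower in NB9464 TCM (−0.85) and in NBT3L TCM (−1.01), the lowest value of the list in the latter. With R788 alone 4 of the 17 were higher and 3 lower.

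**Figure D4:**
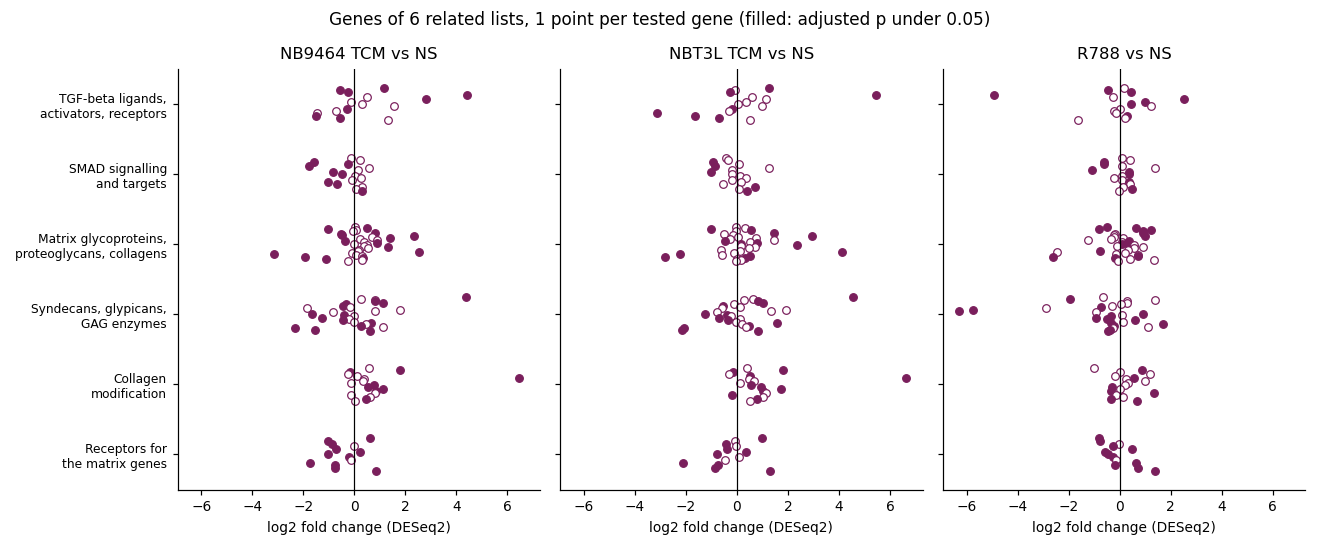
Log2 fold changes of the tested genes of 6 related lists in NB9464 TCM, in NBT3L TCM and with R788 alone, each against NS, 1 point per gene, filled where the adjusted p was under 0.05. The point farthest right in both TCM panels is Lox, at 6.47 and 6.63, and the points below −4 with R788 are Itgb8, Has1 and Has2, which were at 0 in both R788 libraries, so that their fitted values have no fixed size.

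The collagen modification list, to which Plod3 is related, had 7 of 18 genes higher and 1 lower in NB9464 TCM, and 8 higher and 2 lower in NBT3L TCM, with medians of 0.50 and 0.62 beside 0.02 and 0.00 over all tested genes. Lox, which crosslinks collagen and elastin, had 480 and 458 normalized counts in NS, 43690 and 39260 in NB9464 TCM and 46060 and 46940 in NBT3L TCM. Its log2 fold changes were 6.47 and 6.63 (SE 0.0853 each). P4ha2, a prolyl hydroxylase of collagen, was higher by 1.11 and 1.73, and Bmp1, which cleaves procollagen, by 1.79 and 1.81. R788 alone raised Lox by 0.55 (DESeq2 adjusted p = 3e-08) and in NBT3L TCM lowered it by −0.40 (adjusted p = 8.99e-07), with −0.13 in NB9464 TCM (adjusted p = 0.223), and both interactions of Lox were called (−0.69 and −0.95). P4ha1 was lower with R788 in each medium, by −0.30, −0.24 and −0.29. Plod1, a relative of Plod3, was 0.19 lower than NS on the log2 scale in NBT3L TCM (log2 fold change −0.19, adjusted p = 0.00827), with −0.14 in NB9464 TCM (adjusted p = 0.0701).

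Of 33 matrix glycoproteins, proteoglycans and collagens (Thbs4 was not tested), 8 were higher and 7 lower in NB9464 TCM, and 9 higher and 4 lower in NBT3L TCM, with medians of 0.23 and 0.14, the 13 of 33 in NBT3L TCM being near the share of all tested genes. Col5a1, a fibrillar collagen chain, was higher by 2.35 and 2.95, and Nid2, a basement membrane protein, lower by −3.15 and −2.24. Spp1, which encodes osteopontin, had 135300 and 137100 normalized counts in NS and was lower by −1.95 and −2.83. R788 lowered Spp1 in each medium, by −3.18 in NB9464 TCM, −2.34 in NBT3L TCM and −2.59 in cells without TCM, the direction of Sdc3. R788 without TCM raised Col1a1 by 1.23 (DESeq2 adjusted p = 2.14e-10) and Col1a2 by 0.93 (adjusted p = 5.94e-06), both of which are also in the fibroblast list and were called higher with R788 in each TCM too. Thbs2, the relative of Thbs1, was lower in NB9464 TCM than in NS (−1.10, adjusted p = 0.00143), the opposite sign to Thbs1, with 0.01 in NBT3L TCM (adjusted p = 0.983).

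The syndecan, glypican and glycosaminoglycan enzyme list had 6 of 26 genes higher and 8 lower in NB9464 TCM, and 6 higher and 7 lower in NBT3L TCM, with medians of −0.01 and 0.12. Sdc1, another syndecan, had 2503 and 2368 normalized counts in NS, 3765 and 3901 in NB9464 TCM and 7211 and 7193 in NBT3L TCM, which in the latter was 1.56 above NS on the log2 scale (SE 0.067, DESeq2 adjusted p = 1.31e-118). With R788 Sdc1 was higher in NB9464 TCM (0.39) and in NBT3L TCM (0.23) but lower without TCM (−0.32, adjusted p = 2.44e-05), where it had 1946 and 1943, whereas Sdc3 was lower in all 3 media. Both interactions of Sdc1 with TCM were called (0.71 and 0.55). Sdc4 was lower with R788 in each medium, by −0.38 in NB9464 TCM, −0.40 in NBT3L TCM and −0.21 without TCM. Chpf, a chondroitin polymerizing factor whose chains are carried by versican, was higher by 4.39 and 4.55 in the TCM groups. Xylt1, which starts such chains, was lower by −1.56 and −2.16. Its relative Xylt2 went the other way, higher by 0.62 and 0.84. In NS, Xylt2 had 14040 and 14830 normalized counts, against 2694 and 2835 for Xylt1. Hpse, the heparanase that cuts heparan sulfate, was lower by −1.65 and −1.26 and was raised by R788 without TCM (0.91, adjusted p = 1.66e-14), with −0.10 and 0.18 in the TCM groups and no call there. With R788 alone 3 were higher and 11 lower (median −0.31, also with Has1 and Has2 at a floor of 3 counts per group).

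Receptors that bind the matrix members changed in both directions. Of 13 tested, 3 were higher and 8 lower in NB9464 TCM, and 3 higher and 6 lower in NBT3L TCM, with medians of −0.71 and −0.40. Tlr2, a receptor described to bind versican, was higher by 0.84 and 1.28, and Calr, a surface partner of thrombospondin-1, by 0.60 and 0.98. Itgb5 and Itgav, integrin subunits, were lower by −1.74 and −2.12 and by −1.05 and −0.76. Cd36, a thrombospondin-1 receptor, was lower in NB9464 TCM (−1.05), with −0.09 and no call in NBT3L TCM. With R788 alone 4 were higher and 7 lower, Tlr2 being the highest at 1.38 and Calr the lowest at −0.80. Tlr2 was higher with R788 in NB9464 TCM (0.74) and NBT3L TCM (0.49) as well, and its R788 effect differed from that without TCM by −0.64 and −0.88 (DESeq2 adjusted p = 2.31e-14 and 7.96e-28), the sign seen for Vcan and Thbs1. Of 4 tested proteases that cleave versican (Adamts15 was not tested), 1 was higher in each TCM and none lower, the call being for Adamts4, which had a mean of 27.3 normalized counts.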

How the data were processed

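Poly(A)-selected RNA of 12 BMDM libraries was profiled by paired-end sequencing according to the sample labels, with 2 libraries per group. The paper's methods instead describe single-read sequencing in triplicate. The authors deposited 1 table of whole-number counts per Ensembl gene with a gene length for 54232 genes, neither scaled nor normalized. According to the submitters' processing notes, the tools were STAR 2.6.1d, Salmon 1.4.0, SAMtools 1.9, Picard 2.26 and MultiQC 1.11 on mm10. Which of them made the counts, whether strand was used and how reads with several matches were treated are not given in the sources used here. Between 65.2% and 67.9% of counts from 1 to 40 were even, as arises where mates are counted separately.

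Groups came from the labels. Library numbers SJ1 to SJ12 are not shared between groups, so no pairing is labelled, and no batch is given; whether libraries of different groups share a mouse or culture day is unknown. Symbols came from GENCODE M21, which matched 54079 of the gene IDs. A gene was tested where 2 or more libraries had 10 or more counts (16281 genes), with DESeq2 1.42.0 in R 4.3.3: median-of-ratios size factors, 1 fit of 6 group means, two-sided Wald tests and Benjamini-Hochberg adjustment over all tested genes within each of 10 contrasts, called at an adjusted p under 0.05. Normalized counts are counts divided by the size factor, errors are SE of the fit or the libraries themselves (n = 2), and TPM was computed from counts and deposited lengths. On simulated data DESeq2 made more false calls than its threshold allows at 2 libraries per group, so that counts of called genes hold more false calls than that threshold implies. The share of false calls was lower with edgeR 4.0.16, though also above the threshold, and edgeR's quasi-likelihood test stands as an alternative, beside TMM scaling, other filters, counts divided by 2, only the libraries compared, leaving out each library and, added after the data were seen, scaling to total counts.

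The members and gene lists were chosen with earlier results of these data known. The members are given in every library, with the contrasts that bear on each. Of each list, up to 3 called genes per direction and contrast with the largest fold change and a mean of at least 100 normalized counts could be named, and the values of some listed genes are not reported here. Tgfb2, Tgfb3, Itgb6, Thbs4, Has1, Has2, Adamts4 and Adamts15 lie outside that rule and were named after their values were seen. Fold changes are unshrunken. Library totals ran from 44977847 to 56449685 counts.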

Additional observations from a re-analysis of the deposited data

Results flagged for a closer look

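For 4 members the effect of R788, given as a log2 fold change, differed between media by a test of the difference itself (DESeq2 interaction contrasts, adjusted over all tested genes). The R788 effect on Thbs1 differed from that without TCM by −1.69 in NB9464 TCM and by −1.65 in NBT3L TCM, and the R788 effect on Vcan by −1.93 and −1.96. For Sdc3 the difference was 0.33 in NB9464 TCM and 0.77 in NBT3L TCM, and the effect in NB9464 TCM differed from that in NBT3L TCM by −0.45. For Plod3 the difference between NBT3L TCM and no TCM was −0.32 (adjusted p = 0.00635), a call lost with edgeR (0.0568) and without library SJ1 (0.0654), SJ5 (0.0815) or SJ12 (0.0929). Groups of 2 libraries were too small to look for a library that stands apart within its group.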

How the results depend on the processing

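No direction of a called member changed in any alternative fit. TPM was not fitted. On that scale Tgfb1 had means of 246 in NB9464 TCM and 265 in NS, the reverse of its called direction. In R788 against NS, 3 members were called as reported, 5 under total-count scaling and 3 to 6 when a library was left out, the 6 without library SJ8. In NBT3L TCM, R788 gave 2 calls as reported, 1 with edgeR, with TMM scaling in DESeq2, under total-count scaling, with a mean of at least 50 counts, with counts divided by 2 and in each of the 4 fits without a library, and 4 with only the libraries compared. The call lost was that of Plod3, and those gained were of Tgfbi and Thbs1. In R788 against NS, the calls gained under total-count scaling were of Plod3 and Tgfb1. Over the single members, calls changed for 4 of 70 values with edgeR, 7 of 70 under total-count scaling, 16 of 364 when a library was left out and 0 of 70 with no filter on low counts, and for 1 or 2 of 70 under each of the other alternatives. No paired analysis was possible because the groups share no replicate numbers. Of the genes called, the share that was higher moved under total-count scaling from 49.9% to 31.4%, 51.1% to 40.1% and 40% to 25.3% in the interaction of NB9464 TCM, of NBT3L TCM and between both. The genes called in the last of these were 115 with DESeq2, 21 with edgeR, 272 with only the libraries compared and 46 to 76 with a library left out. When a library was left out, called genes fell to as few as 795 between both TCM (without SJ6, 1531 with all libraries), 852 with R788 in both arms (without SJ12, 1567), 1432 for R788 in NB9464 TCM (without SJ3, 2359) and 1173 for R788 in NBT3L TCM (without SJ6, 2046). In the interactions of NB9464 TCM and NBT3L TCM with no TCM they fell to 1344 (2032) and 1038 (1649) without SJ2, and in the latter rose to 2583 without SJ7. Those fits hold fewer libraries, and no other cause was tested.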
